A study of Homo sapiens with 17 samples.

Results

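The clustered protocadherin genes were followed in YB5 cells, a human colon cancer line derived from SW48 that carries a silenced reporter made of a cytomegalovirus promoter and the gene for green fluorescent protein. Members were the protein-coding genes on chromosome 5 whose symbols begin with PCDHA, PCDHB or PCDHG. The count table held 52 of the 53 annotated genes, 14 in the alpha, 16 in the beta and 22 in the gamma cluster, among 19141 genes in all. PCDHA1 was not analysed here. The cells had been exposed to DMSO, the solvent, or to 250 nM toyocamycin, an adenosine analog, and polyA RNA was sequenced in 17 libraries. There were 2 libraries of each arm at 2 h, 1 DMSO and 2 toyocamycin libraries at 10 h, 1 of each arm at 24 h and at 48 h, and 3 of each arm at 72 h. For the last time the labels give 72 h, used here, where the study writes 96 h. Replicate 2 of each arm at 2 h and 10 h belonged to the labelled batch 2 (4 libraries), and the other 13 libraries to batch 1. All libraries come from this single line, so they describe these cells only.

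The clustered protocadherins are cadherin-like adhesion proteins of the cell surface, best known from neurons, where each cell uses its own set of isoforms to recognise itself and its neighbours. Every variable exon has its own promoter. An alpha or gamma transcript joins the variable exon to constant exons shared by all genes of its cluster, whereas a beta gene is made of its own exon. Promoter choice depends on CTCF and cohesin, unused promoters carry DNA methylation, and the clusters are known for promoter methylation in several tumour types. The last genes of the alpha and gamma clusters, called the C-type genes (PCDHAC1, PCDHAC2, PCDHGC3, PCDHGC4 and PCDHGC5), follow rules of their own and are less often chosen at random.

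The genes lie on the plus strand of GRCh38, the alpha cluster at chr5:140794852-141012347, the beta cluster at chr5:141051374-141249365 and the gamma cluster at chr5:141330514-141512977. RefSeq starts with promoter sequence (GRCh38.p14) were matched for 46 of the 52 members. PCDHA3, PCDHA13, PCDHB6, PCDHB11, PCDHGA12 and PCDHGC5 had no entry. The 150 bases before the start are shown for the 2 most highly counted genes of each cluster that were tested, and for PCDHGC3, a C-type gene, because the members share a short element there. Capitals mark every CGCT on either strand. CGCT is the core of the conserved element of these promoters, but a marked match need not be that element.
PCDHA4 (chr5:140806918-140807067, plus strand): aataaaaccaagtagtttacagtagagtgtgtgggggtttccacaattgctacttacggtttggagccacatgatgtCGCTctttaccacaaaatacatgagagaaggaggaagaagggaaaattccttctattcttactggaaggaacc
PCDHA10 (chr5:140855747-140855896, plus strand): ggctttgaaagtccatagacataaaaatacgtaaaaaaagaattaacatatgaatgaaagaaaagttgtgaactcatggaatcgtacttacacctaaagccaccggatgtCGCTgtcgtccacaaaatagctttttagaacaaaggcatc
PCDHB13 (chr5:141213769-141213918, plus strand): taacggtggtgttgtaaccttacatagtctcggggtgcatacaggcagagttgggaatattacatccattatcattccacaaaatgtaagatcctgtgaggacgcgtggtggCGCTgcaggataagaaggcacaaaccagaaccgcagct
PCDHB14 (chr5:141223193-141223342, plus strand): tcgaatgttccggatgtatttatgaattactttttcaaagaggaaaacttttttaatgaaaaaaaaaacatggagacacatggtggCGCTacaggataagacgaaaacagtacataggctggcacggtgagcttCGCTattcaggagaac
PCDHGA1 (chr5:141330364-141330513, plus strand): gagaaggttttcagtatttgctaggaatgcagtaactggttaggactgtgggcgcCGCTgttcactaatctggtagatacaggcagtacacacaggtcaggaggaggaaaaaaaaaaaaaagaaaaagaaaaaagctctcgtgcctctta
PCDHGA10 (chr5:141412837-141412986, plus strand): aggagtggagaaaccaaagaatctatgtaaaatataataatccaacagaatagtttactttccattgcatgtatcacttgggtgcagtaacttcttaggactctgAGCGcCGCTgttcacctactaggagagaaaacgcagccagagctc
PCDHGC3 (chr5:141475816-141475965, plus strand): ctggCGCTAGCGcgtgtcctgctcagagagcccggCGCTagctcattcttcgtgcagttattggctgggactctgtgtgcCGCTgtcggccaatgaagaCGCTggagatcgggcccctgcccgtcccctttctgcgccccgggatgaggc

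CGCT on the strand of the gene occurred within 150 bases before the start in 43 of 46 members, 11 of 12 alpha, 13 of 14 beta and 19 of 20 gamma genes. The same was found in 36.7% of the 27305 promoters of the table. PCDHA9, PCDHB8 and PCDHGB2 had none in this window. On either strand and over 250 bases it occurred in 44 of the 46 members and in 64.3% of all promoters. The longer word AGCGCT, which reads the same on both strands and contains CGCT, was found over 250 bases in 2 of 46 members, both gamma genes, and in 5.11% of all promoters. The members held a median of 6 CpG dinucleotides in 250 bases (2 to 18), against 11 over all promoters. The 13 CpG of the PCDHGC3 stretch printed above stand against 2 in that of PCDHA4 and 3 in that of PCDHGA10. A match is a description of the letters only.

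Library totals lay between 13483232 and 22121364 counts, apart from replicate 2 of toyocamycin at 10 h, which had 8735465. This library stood apart in another way. Of the 4674 genes with at most 3 counts over the 8 DMSO libraries together, 92.1% had a count in it, against 7.49 to 53.8% in the other 8 toyocamycin libraries. The share on toyocamycin was 7.49 to 12.2% at 2 h, 16.3% in replicate 1 at 10 h, 21.0% at 24 h, 42.1% at 48 h and 49.4 to 53.8% at 72 h, and it was 3.74 to 13.7% on DMSO. A wide range of genes at or near 0 on DMSO therefore gained counts with time on toyocamycin, and the part of this in the results below was not tested. In a bulk sample, more cells with a transcript and more transcript per cell cannot be told apart.

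On DMSO most of the clusters were nearly silent. In CPM, a gene's counts per 1000000 counts of its library after scaling by edgeR's trimmed mean of M values, the summed level of the alpha cluster was 5.58 in its lowest, 8.08 in the median and 13.1 in its highest DMSO library. For the beta cluster these values were 6.40, 12.9 and 17.9, and for the gamma cluster 0.770, 1.55 and 2.06. Only 5 of the 52 genes had at least 10 counts in every DMSO library, namely PCDHA4, PCDHAC2, PCDHB11, PCDHB13 and PCDHB14. Fewer than 10 counts in each of the 8 DMSO libraries were found for 39 genes, 10 alpha, 9 beta and 20 gamma. Reads over exons that several genes share are not assigned to any of them in this kind of counting, so an alpha or gamma gene was counted mainly over bases of its own. These had a median length of 3316 bases in the alpha, 3538.5 in the beta and 2821 in the gamma cluster. The lower gamma counts were therefore not matched by a much shorter counted length: per kilobase of own exon, the summed level at 72 h on DMSO was 0.111 CPM for alpha, 0.174 for beta and 0.0166 for gamma.

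**Figure D1:**
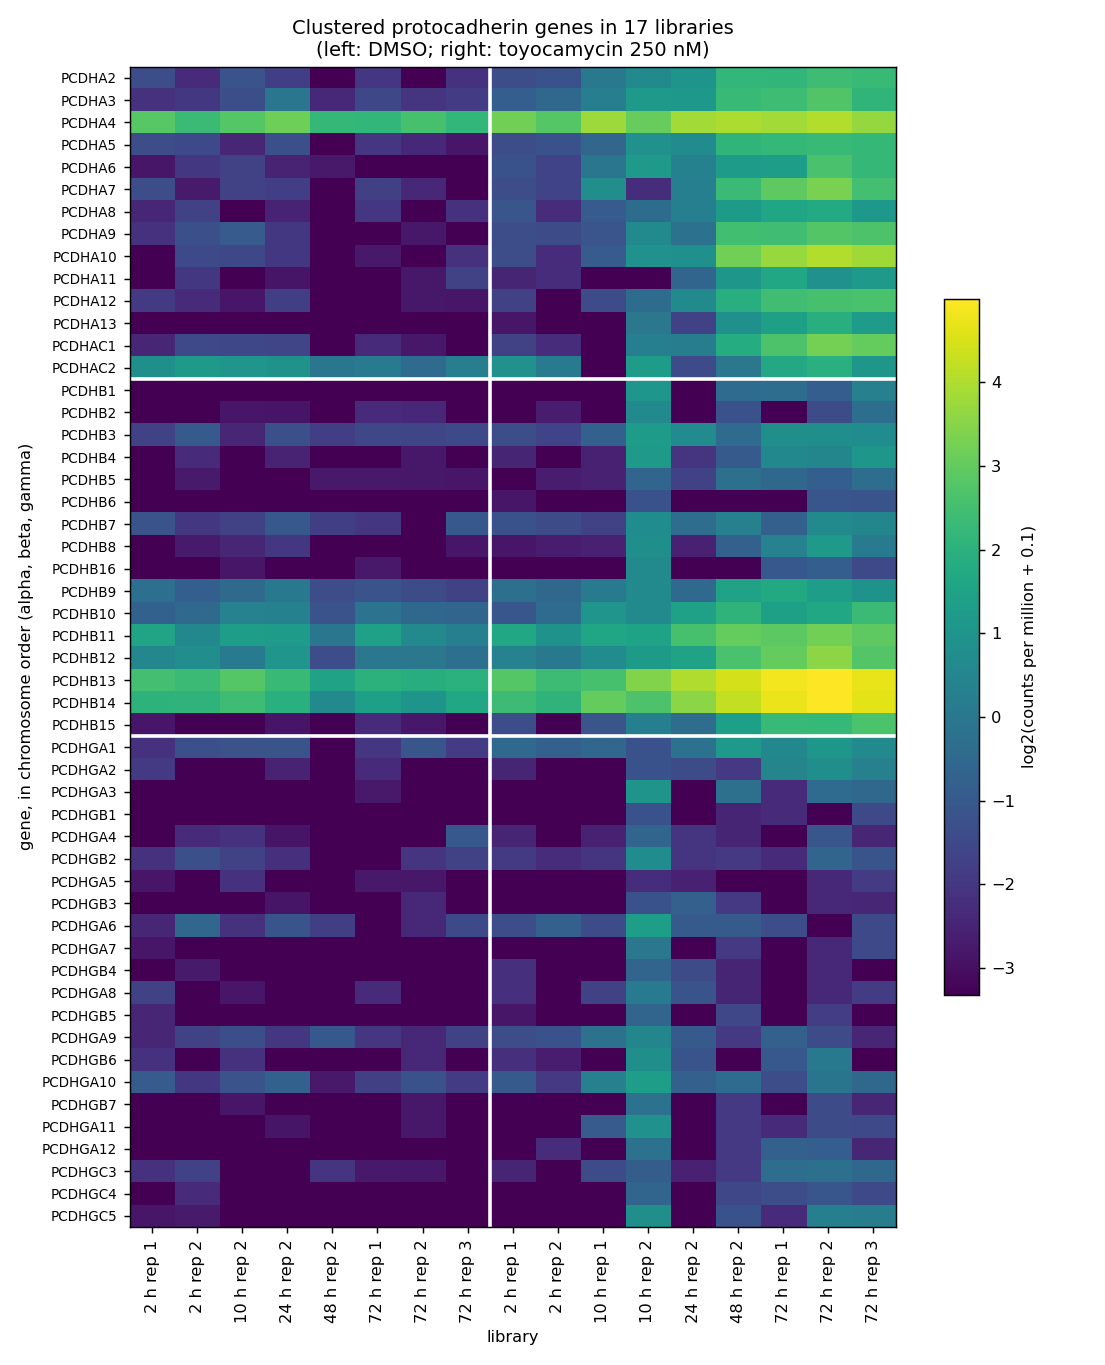
Level of the 52 clustered protocadherin genes (rows, in chromosome order, white lines between the clusters) in the 17 libraries (columns, DMSO left and toyocamycin right of the white line), as log2(CPM + 0.1). PCDHA4, PCDHAC2 and PCDHB9 to PCDHB14 are visible on DMSO, nearly all alpha rows and many beta rows brighten at 48 and 72 h, and replicate 2 of toyocamycin at 10 h shows low counts in almost every row.

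At 72 h all 3 clusters were higher on toyocamycin. The summed alpha level was 6.60 ± 0.359 CPM on DMSO (SD, n = 3) and 86.4 ± 11.8 on toyocamycin (SD, n = 3). The summed beta level went from 10.4 ± 1.37 to 92.8 ± 8.81, and the summed gamma level from 1.22 ± 0.325 to 8.40 ± 2.59. The 3 toyocamycin libraries lay above all 3 DMSO libraries in each cluster. On the log2 scale the ratio of the summed levels was 3.71 for alpha, 3.16 for beta and 2.79 for gamma. Gamma therefore remained the lowest of the 3 clusters on toyocamycin, also per kilobase of own exon, with 0.115 CPM against 1.45 for alpha and 1.55 for beta.

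**Figure D2:**
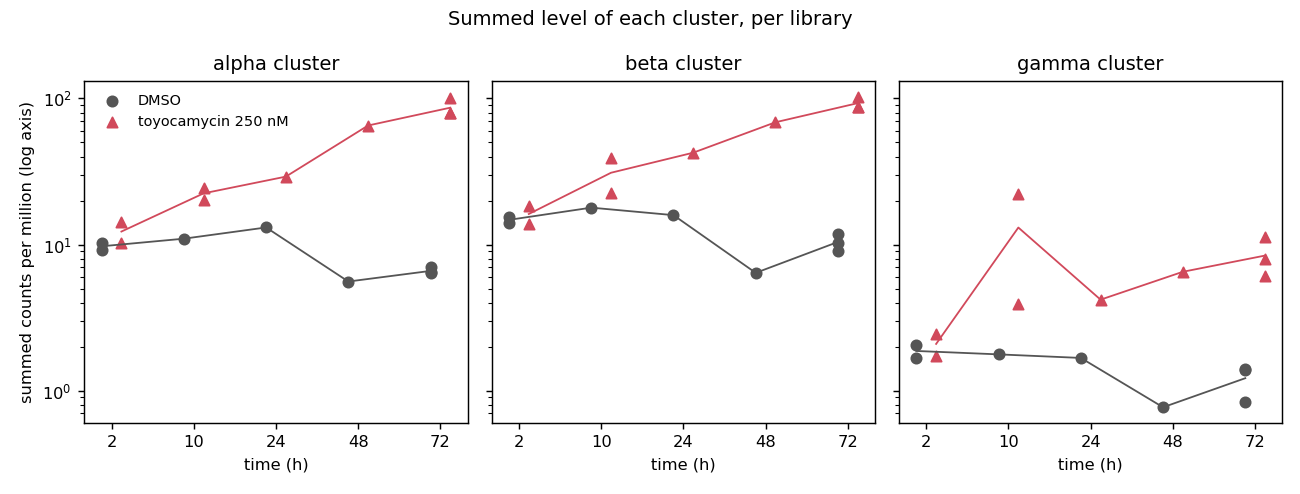
Summed CPM of the alpha, beta and gamma genes (log axis) against time in hours, with 1 point per library and lines through the means of DMSO (circles) and toyocamycin (triangles). The alpha sum on toyocamycin rises from 10.3 to 14.3 at 2 h to between 79.3 and 99.98 at 72 h, while DMSO stays between 5.58 and 13.1.

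Over all 52 members, 36 had every toyocamycin library above every DMSO library at 72 h, 14 of 14 alpha, 14 of 16 beta and 8 of 22 gamma genes, and 0 had the reverse. The same held for 39.4% of the 19141 genes counted, and the reverse for 31.8%. A gene with 0 counts in a DMSO library of that time cannot show the reverse. Fewer than 10 counts in every DMSO library left 39 of the 52 members little room for it, or for a lower call. With edgeR's quasi-likelihood test and Benjamini-Hochberg adjustment, 34 members had enough counts to be tested, and 33 of them were higher at an adjusted p under 0.1. These were 14 of 14 alpha, 13 of 13 beta and 6 of 7 gamma genes, and 0 members were lower, by this test and at an unadjusted p under 0.05 as well. Of the 14491 genes tested, 47.0% were called higher and 41.9% lower. Many members passed the filter on low counts only through the toyocamycin libraries, in which they had to be high, so the count over all 52 is the fairer one. The median log2 fold change of the tested members was 5.97 for alpha (1.59 to 9.33), 3.44 for beta and 3.58 for gamma, and 0.18 over all genes tested. With genes at 0 on DMSO set to the bound from 3 counts, the alpha median was 5.77.

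The scaling moved these values. The median of each cluster stayed positive, that of all genes did not, and the fold change of PCDHGA6 turned negative in 1 scaling. The median of all genes tested at 72 h was 0.18 on the log2 scale in the scaling used here, 0.50 with DESeq2 size factors, -0.42 with library totals alone and -0.89 when libraries were set to equal mitochondrial counts. The number of members called higher was 33, 33, 32 and 30 of 34 in the same order, and 0 were lower in each. Of all 14491 genes 47.0, 51.4, 39.0 and 29.0% were higher and 41.9, 37.1, 50.4 and 50.8% lower. The 34 members are those that passed the filter on low counts. Without a filter 42 of 52 were higher and 0 lower, where 46.0% of 18215 genes were higher and 33.9% lower.

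**Figure D3:**
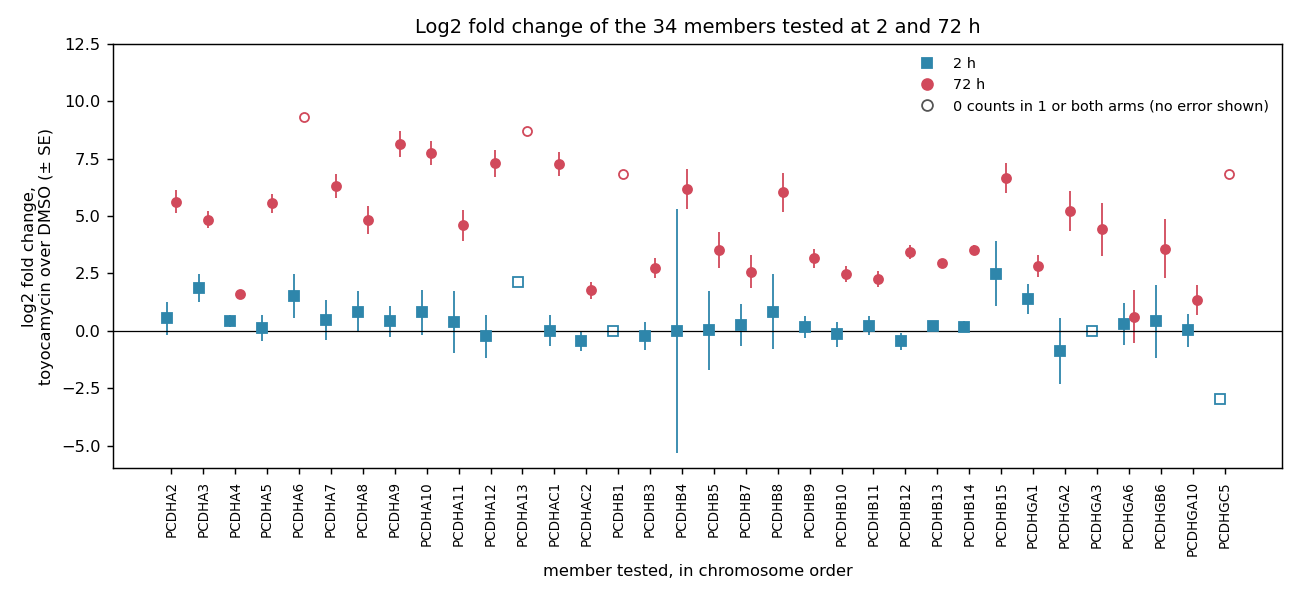
Log2 fold change (toyocamycin over DMSO) of the 34 members tested, in chromosome order, at 2 h (squares) and 72 h (circles). Bars are ± SE, derived from the F statistic of the edgeR test. Open symbols are genes with 0 counts in an arm, whose fitted value depends on the prior count. The 2 h values lie around 0, and at 72 h PCDHA4, PCDHAC2 and the gamma genes PCDHGA6 and PCDHGA10 are the lowest.

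In the alpha cluster, the genes with low counts on DMSO took over most of the cluster's reads. PCDHA4 (ENSG00000204967), an alpha gene with a random-choice promoter, held 55.1 to 83.4% of the alpha counts in the 8 DMSO libraries. Its share was 65.7 and 67.4% on toyocamycin at 2 h, 67.6 and 33.3% in replicates 1 and 2 at 10 h, 49.3% at 24 h, 23.8% at 48 h and 16.0 to 17.8% at 72 h, where it lay below every DMSO library. PCDHA4 had 10557 bases of own exon, against an alpha median of 3316, which raises its share of counts. Per kilobase of own exon, PCDHAC2 led in replicate 2 of DMSO at 2 h with 38.8%. PCDHA4 led in the other DMSO libraries with 36.3 to 61.3%. PCDHA4 itself did not lose counts. It had 90, 126 and 103 counts in the 3 DMSO libraries at 72 h and 145, 178 and 146 on toyocamycin. Its log2 fold change was 1.59 ± 0.21 (SE), with an adjusted p of 3.07e-06 by edgeR. Under mitochondrial scaling its log2 fold change was 0.50 and the call was lost, with an adjusted p of 0.307, in a range of 1.71e-13 to 0.307 over all settings.

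**Figure D4:**
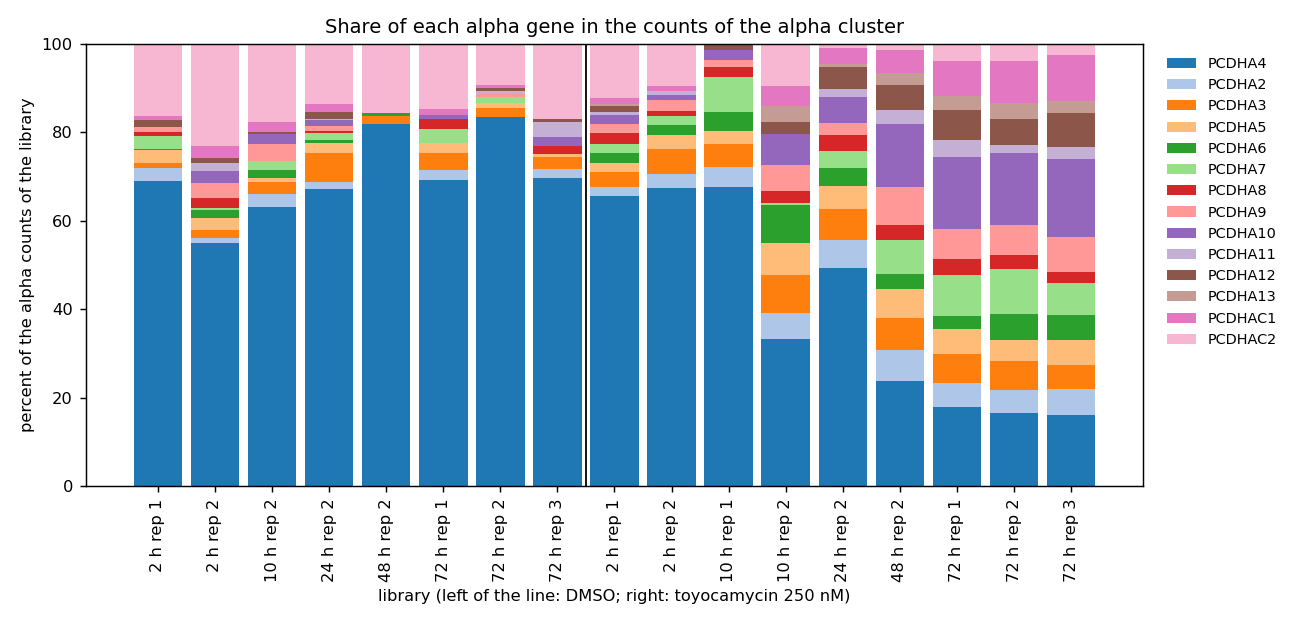
Percent of the alpha counts that fell on each of the 14 alpha genes in every library, with DMSO left and toyocamycin right of the line. PCDHA4, at the bottom, leads the counts of every DMSO library with 55.1% or more. It has 16.0 to 17.8% at 72 h on toyocamycin, where PCDHA10 has a similar share. Shares are not scaled for exon length.

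PCDHA10 (ENSG00000250120) had 1, 0 and 3 counts on DMSO and 132, 177 and 161 on toyocamycin at 72 h. The groups were far apart, at 0.0594 ± 0.0649 and 14.5 ± 1.76 CPM (SD, n = 3 each), and the log2 fold change was 7.76 ± 0.52 (adjusted p = 1.37e-09, edgeR). In CPM it then matched PCDHA4, which had 14.5 ± 1.91, and per kilobase of own exon the levels were 1.46 and 1.37.

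PCDHA9 had 0, 1 and 0 counts on DMSO and 55, 72 and 72 on toyocamycin. The single DMSO count leaves the ratio imprecise, at 398-fold with a 95% counting interval of 70.7 to 15814. PCDHA7 had 4, 2 and 0 counts against 77, 108 and 65, a log2 fold change of 6.31 ± 0.54 (adjusted p = 2.22e-08, edgeR). All toyocamycin libraries of both genes were above all DMSO libraries.

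PCDHA3 was among the less silent genes, with 5, 3 and 4 counts on DMSO and 53, 71 and 49 on toyocamycin at 72 h, and its log2 fold change was 4.84 ± 0.38 (adjusted p = 7.6e-09, edgeR). PCDHA6 and PCDHA13 had 0 counts in the 3 DMSO libraries. With 3 counts over the group as the bound, PCDHA6 was at least 94.1-fold and PCDHA13 at least 60.7-fold higher on toyocamycin, from 24, 65 and 52 counts and from 26, 39 and 26 counts.

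The C-type alpha genes differed in where they started. PCDHAC1 had 2, 1 and 0 counts on DMSO and 64, 103 and 94 on toyocamycin at 72 h, a log2 fold change of 7.27 ± 0.52 (adjusted p = 2.53e-09, edgeR). PCDHAC2, with 14 to 46 counts in the 8 DMSO libraries, had 19, 14 and 25 counts on DMSO and 32, 41 and 23 on toyocamycin at 72 h. Its log2 fold change was 1.76 ± 0.36 (adjusted p = 0.00029, edgeR), and under mitochondrial scaling 0.69 with the call lost, at an adjusted p of 0.256 in a range of 3.75e-05 to 0.256 over all settings. PCDHA4 and PCDHAC2, which had the most counts of the cluster on DMSO, thus had the smallest fold changes in it.

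The counts of the beta cluster stayed spread over the same leading genes. PCDHB13 (ENSG00000187372) and PCDHB14 (ENSG00000120327) led on DMSO and on toyocamycin. PCDHB13 had 81, 77 and 90 counts on DMSO and 290, 344 and 302 on toyocamycin at 72 h. Its level went from 3.82 ± 0.222 to 28.9 ± 2.83 CPM (SD, n = 3 each), a log2 fold change of 2.95 ± 0.18 (adjusted p = 3.4e-10, edgeR). PCDHB14 had 50, 40 and 72 counts against 273, 340 and 289, and a log2 fold change of 3.52 ± 0.21 (adjusted p = 2.91e-10, edgeR). Per kilobase of own exon, these genes were the highest members on toyocamycin, at 6.55 CPM for PCDHB14 and 5.71 for PCDHB13, followed by the alpha genes PCDHA12 with 2.86 and PCDHA7 with 2.65. PCDHB13 held 33.9 to 39.3% of the beta counts on DMSO at 72 h and 29.99 to 32.4% on toyocamycin.

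PCDHB11, PCDHB12 and PCDHB10, their neighbours on the chromosome, rose as well. PCDHB11 had 53, 31 and 26 counts on DMSO and 75, 99 and 86 on toyocamycin at 72 h, a log2 fold change of 2.25 ± 0.33 (adjusted p = 1.21e-05, edgeR). PCDHB12 had 18, 19 and 17 against 83, 126 and 78, a log2 fold change of 3.44 ± 0.29. PCDHB10 had 16, 13 and 13 against 26, 33 and 57, a log2 fold change of 2.47 ± 0.36. For each of these genes the toyocamycin libraries exceeded every DMSO library in CPM.

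PCDHB15, the last beta gene, was close to silent on DMSO with 2, 1 and 0 counts and had 49, 50 and 71 on toyocamycin, a log2 fold change of 6.65 ± 0.64 (adjusted p = 1.01e-07, edgeR). PCDHB1, at the other end, had 0 counts in all 8 DMSO libraries and 7, 5 and 13 on toyocamycin at 72 h, and was at least 16.7-fold higher. PCDHB6 and PCDHB2 were the beta genes whose groups overlapped, with 0, 4 and 4 and with 0, 3 and 8 counts on toyocamycin. Beta genes are close copies of each other, so reads between near-identical copies may be split or lost, and fold changes of single genes are less certain than the sum.

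In the gamma cluster the counts were low in both arms. PCDHGA1 (ENSG00000204956) had 3, 8 and 4 counts on DMSO and 14, 22 and 17 on toyocamycin at 72 h, a log2 fold change of 2.82 ± 0.49 (adjusted p = 6.65e-05, edgeR). PCDHGA2, its neighbour, had 2, 0 and 0 counts against 13, 18 and 13, a 44.04-fold ratio with a 95% counting interval of 11.5 to 375. These were the only gamma genes with at least 10 counts in every toyocamycin library at 72 h, against 14 of 14 alpha and 10 of 16 beta genes.

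PCDHGA3 had 1, 0 and 0 counts on DMSO and 1, 7 and 7 on toyocamycin, a 30.03-fold ratio with an interval of 4.62 to 1264. PCDHGA10 had 4, 7 and 4 counts against 3, 9 and 7, and in CPM its groups overlapped. Its log2 fold change was 1.34 ± 0.64 (adjusted p = 0.060, edgeR). The call was lost without DMSO replicate 1 (0.119) or 3 (0.143) or toyocamycin replicate 2 (0.237) or 3 (0.120), and the adjusted p was 0.0244 to 0.772 over all settings. PCDHGA6 was the tested member that was not called, with 0, 2 and 6 counts against 3, 0 and 3. Its log2 fold change of 0.60 ± 1.16 (adjusted p = 0.628, edgeR) turned to -0.28 under mitochondrial scaling.

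The C-type gamma genes each had more counts on toyocamycin at 72 h. PCDHGC3 had 1, 1 and 0 counts on DMSO and 7, 8 and 7 on toyocamycin, a 22.02-fold ratio with a 95% counting interval of 5.41 to 193. PCDHGC4 had 0 counts on DMSO and 3, 4 and 3 on toyocamycin, at least 6.67-fold higher. PCDHGC5 had 0 counts on DMSO and 1, 12 and 12 on toyocamycin, at least 16.7-fold higher. PCDHGC3 and PCDHGC4 did not pass the filter and were not tested.

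**Figure D5:**
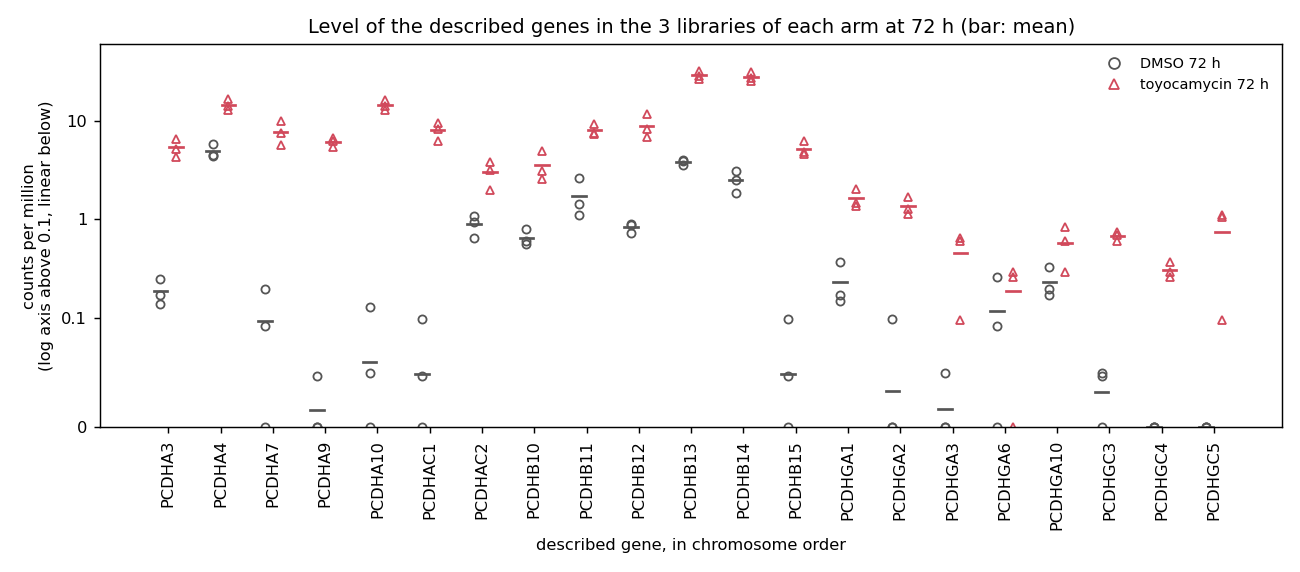
CPM of the 21 described genes in each library of DMSO (circles) and toyocamycin (triangles) at 72 h, with the mean as a bar. The axis is logarithmic above 0.1 and linear below it. The arms are separate for the alpha and beta genes shown and overlap for PCDHGA6 and PCDHGA10.

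At 2 h the clusters hardly differed between the arms. The summed alpha level was 9.73 ± 0.818 CPM on DMSO (SD, n = 2) and 12.3 ± 2.80 on toyocamycin (SD, n = 2), the beta level 14.8 ± 1.09 and 16.2 ± 3.19, and the gamma level 1.87 ± 0.264 and 2.09 ± 0.502. Of the 34 members tested, 1 was called higher and 0 lower, against 0.518% higher and 8.42% lower of all genes tested. At an unadjusted p under 0.05, 0 members were lower as well. With few counts on DMSO for most members, there was little room for a lower call. The median log2 fold change was 0.45 for alpha, 0.18 for beta and 0.02 for gamma.

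The call at 2 h was PCDHA3, with 3 and 3 counts on DMSO and 11 and 11 on toyocamycin. Its log2 fold change was 1.85 ± 0.61 and its adjusted p by edgeR 0.094, close to the threshold. It was lost without any single 2 h library (0.159 to 0.318) and under most other settings (0.092 to 0.833 over all). In the fit that paired libraries by their number, which at 2 h is also their labelled batch, 10 members were tested. None of them was called in either direction, where 8.72% of all genes tested were higher and 18.7% lower. PCDHA3 did not pass the filter on low counts in that fit, so it cannot show whether this call holds. DESeq2's Wald test called 0 as well, but 11 of the 34 members received no adjusted p in it.

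The 10 h comparison rests on 1 DMSO library and on 2 unlike toyocamycin libraries. Replicate 1 of toyocamycin had 9 gamma genes with a count and replicate 2 had all 22, and the summed gamma level was 3.93 and 22.2 CPM, against 1.77 on DMSO. Mitochondrial genes took 6.55% of the counts of replicate 2, against 0.917 to 3.49% in the other 16 libraries, and the part of this in the 10 h values was not tested. With both libraries, 8 of 46 members were called higher and 0 lower by edgeR, where 20.4% of all genes tested were called higher and 24.4% lower. These were PCDHA3, PCDHA5, PCDHA6, PCDHA8, PCDHA12, PCDHB3, PCDHB4 and PCDHB15. At an unadjusted p under 0.05, 0 members were lower. Without replicate 2, 7 of 35 members were higher (background 24.0%) and 2 lower (background 28.0%), and 5 of the 8 were among the 7. Without replicate 1, which leaves libraries of batch 2 alone in this contrast, 36 of 46 were higher (background 39.1%) and 0 lower (background 27.0%). Each of these fits leaves 1 library in an arm, assumed to vary like the other groups. Without replicate 2, toyocamycin was in batch 1 and DMSO in batch 2, so treatment and batch cannot be told apart. With replicate 2 in the fit 46 members passed the filter on low counts, and without it 35. Members that passed only through replicate 2 had to be high in it, which leaves little room for a lower call.

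PCDHAC2 moved in the other direction in replicate 1, a library of batch 1 set against DMSO of batch 2. It had 46 counts on DMSO at 10 h, 0 in replicate 1 of toyocamycin and 21 in replicate 2. Without replicate 2 it was called lower, with an adjusted p of 0.00080 by edgeR, and with both libraries its log2 fold change was -0.85 ± 1.09 (adjusted p = 0.525). A count of 0 still allows up to 3 counts in that library, from counting error alone. PCDHAC1, with 6 counts on DMSO and 0 and 10 on toyocamycin, was the other gene called lower without replicate 2, at an adjusted p of 0.0962. PCDHA4 had 164 counts on DMSO and 192 and 74 on toyocamycin, and was called higher without replicate 2.

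At 24 and 48 h each arm had 1 library, so the differences have no replicate check, and they are given as values without a test. At 24 h, 22 of the 34 members of the filtered table were past 1 on the log2 scale upwards, 12 alpha, 7 beta and 3 gamma genes, and 2 downwards, where 29.7 and 27.8% of all genes were. At 48 h 32 of 34 were past 1 upwards and 0 downwards, against 38.1 and 29.9% of all genes. Of the 34, 22 passed the filter only through toyocamycin libraries of 24 to 72 h, in which they had to be high. Without a filter, 29 of 52 were past 1 upwards and 4 downwards at 24 h (27.0 and 25.1% of all genes), and 45 and 1 at 48 h (38.4 and 25.3%). The summed alpha level was 13.1 CPM on DMSO and 29.2 on toyocamycin at 24 h, and 5.58 and 65.2 at 48 h. The beta level was 15.9 and 42.5 at 24 h and 6.40 and 68.7 at 48 h, and the gamma level 1.67 and 4.20, then 0.770 and 6.51.

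PCDHAC2 was the lowest alpha gene in relative terms at 24 h, with 46 counts on DMSO and 4 on toyocamycin, a ratio of 0.154 with a 95% counting interval of 0.0401 to 0.421. At 48 h it had 18 and 11 counts and a ratio of 1.03 (0.441 to 2.31). PCDHB8, with 4 counts and 1 count, was the other gene past 1 downwards at 24 h. PCDHA10 had 4 and 25 counts at 24 h, a ratio of 11.04 (3.81 to 43.6), and 0 and 115 counts at 48 h, at least 64.8-fold. PCDHB13 had a ratio of 3.30 (2.64 to 4.14) at 24 h and 8.15 (6.09 to 11.1) at 48 h. PCDHB14 had 3.08 (2.38 to 3.99) and 12.7 (8.67 to 19.0). PCDHB12 had 49 counts on DMSO and 39 on toyocamycin at 24 h, a ratio of 1.41 (0.899 to 2.18), and 6 and 74 counts at 48 h, a ratio of 20.8 (9.14 to 58.6). The intervals cover counting error only. The ratios at 24 h depend on the scaling: the median log2 fold change of the tested beta genes was 1.17 and turned to -0.91 under mitochondrial scaling.

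The change between 2 and 72 h was tested as a difference of the log2 fold changes in the same fit. It was positive with an adjusted p under 0.1 for 25 of 34 members, 13 alpha, 10 beta and 2 gamma genes, and negative for 0, at an unadjusted p under 0.05 as well. Over all genes tested, 38.0% were positive and 38.1% negative. Since 22 of the 34 passed the filter only through the later toyocamycin libraries, the count over all members is given too. Without a filter 26 of 52 were positive and 0 negative, where 31.4 and 30.7% of all genes were. The difference was 6.95 ± 1.54 for PCDHA10 (adjusted p = 0.000855, edgeR), 2.76 ± 0.27 for PCDHB13 (2.7e-07) and 2.21 ± 0.55 for PCDHAC2 (0.00194). For PCDHGA1 it was 1.44 ± 0.87 with an adjusted p of 0.151.

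The levels on DMSO were themselves lower at the late times. The summed alpha level was 9.15 to 13.1 CPM over the DMSO libraries of 2 to 24 h and 5.58 to 7.01 at 48 and 72 h, and the beta level 13.98 to 17.9 and 6.40 to 11.8. PCDHAC2 had 40 to 46 counts on DMSO up to 24 h and 14 to 25 at 48 and 72 h. Each comparison above was made at matched time.

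Genes known to act on the clusters moved in both directions at 72 h. Of 22 factors of promoter choice and silencing, 7 were higher and 13 lower by edgeR (median log2 fold change -0.90, all genes 0.18). Over all genes tested at 72 h, 47.0% were higher and 41.9% lower. DNMT1, the maintenance DNA methyltransferase, went from 398 ± 23.9 to 23.3 ± 4.14 CPM, a log2 fold change of -4.06 ± 0.16. SMC1A, a cohesin subunit, had a log2 fold change of -3.07 ± 0.12, and TRIM28, a corepressor, of -1.16 ± 0.21. CTCF, which binds the promoters and enhancers of the clusters, went from 87.0 ± 4.22 to 105.5 ± 2.09 CPM, a log2 fold change of 0.31 ± 0.11 (adjusted p = 0.0169). At 2 h 5 of the 22 were lower and 0 higher, where 8.42% of all genes tested were lower and 0.518% higher: CTCF (log2 fold change -0.56), the cohesin loader NIPBL (-0.91), the cohesin release factor WAPL (-0.71), and the methylcytosine oxidases TET2 (-0.72) and TET3 (-0.94). At 72 h NIPBL (0.85), TET2 (1.22) and TET3 (1.65) were called higher, and WAPL (-0.15) was not called. At 10 h, with 1 DMSO library, the median log2 fold change of the 22 was -1.02, against 0.42 over all genes tested.

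The non-clustered protocadherins and related genes outside the clusters behaved in a mixed way. Of 15 listed, 8 were tested at 72 h, 6 were higher and 1 lower. Over all genes tested at this time, 47.0% were higher and 41.9% lower. Some of the 8 passed the filter on low counts only through toyocamycin libraries, in which they had to be high. PCDH7 went from 9.54 ± 1.13 to 35.6 ± 5.80 CPM, CDHR5 from 0.0783 ± 0.0308 to 42.5 ± 4.51, and PCDH1 fell from 18.5 ± 1.99 to 10.2 ± 0.463. At 2 h 0 of 8 were called in either direction, where 0.518% of all genes tested were higher and 8.42% lower. Of 22 proteases, kinases and actin regulators that process or act with clustered protocadherins, 5 were higher and 14 lower at 72 h among 21 tested. CYFIP1, a subunit of the WAVE actin regulator, had a log2 fold change of -3.71 ± 0.13, BRK1, another subunit, of -1.53 ± 0.17, and RAC1, the GTPase that acts on it, of 0.52 ± 0.12. Of the classical cadherins and catenins, 2 of 7 tested were higher and 5 lower, with log2 fold changes of -3.47 ± 0.13 for CDH1, the epithelial cadherin, -5.65 ± 0.21 for JUP and -2.13 ± 0.12 for CTNNB1.

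The other genes of the same stretch of chromosome 5 moved in both directions. Of 19 tested genes beside or between the clusters, 6 were higher and 13 lower at 72 h, with a median log2 fold change of -0.93. None of the 19 was called at 2 h in either direction. Those near 0 on DMSO could pass the filter on low counts only through toyocamycin libraries. Over all genes tested, 47.0% were higher and 41.9% lower at 72 h, and 0.518 and 8.42% at 2 h. TAF7, a general transcription factor subunit encoded between the beta and gamma clusters, was higher, with a log2 fold change of 4.83 ± 0.16. DIAPH1, an actin nucleator beyond the gamma cluster, went from 414 ± 3.51 to 23.7 ± 0.773 CPM. ZMAT2 had a log2 fold change of 1.04 ± 0.18. Some near-silent genes of the stretch rose too: SLC25A2, a mitochondrial carrier gene, had 0 CPM on DMSO and 6.07 ± 0.830 on toyocamycin, and CD14, a receptor of myeloid cells, had a log2 fold change of 7.34 ± 0.37 (adjusted p = 5.62e-11, edgeR).

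Markers of the line and of other cell types were measured beside these results. The summed level of 11 colon epithelial markers was 5591 to 6549 CPM on DMSO and 508 to 538 on toyocamycin at 72 h, with CDX1 at 0 in both arms. KRT8 and KRT18, epithelial keratins, made up most of this sum, with means of 4293 and 1215 CPM on DMSO and 268 and 34.9 on toyocamycin. At 10 h the colon sum was 1402 CPM on DMSO and 3851 to 4574 on toyocamycin. With 1 library an arm it was 1738 and 3724 at 24 h, then 2723 and 1395 at 48 h. Of the 8 colon markers tested at 72 h, 3 were higher and 5 lower. For this and the marker lists below, all at 72 h, 47.0% of all genes tested were higher and 41.9% lower. Listed genes near 0 on DMSO could pass the filter on low counts only through toyocamycin libraries. The 12 neuronal markers summed to 8.31 to 11.3 and 34.3 to 42.0 CPM, with SNAP25 and NEFM at 0 in both arms at 72 h, and 5 of 6 tested were higher. The 8 fibroblast markers summed to 0.464 to 1.19 and 2.85 to 21.96 CPM, and 5 of 5 tested were higher. The 7 endothelial and blood markers summed to 0.343 to 0.694 and 2.46 to 5.21 CPM, and 2 of 4 tested were higher. The part of these shifts in the rise of the protocadherins was not tested.

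The genes whose level most resembled a cluster over the 17 libraries were found by Pearson's r with its summed level. These libraries share treatment and time, so r is a description. For alpha they were PIGG (0.993), ARMH4 (0.986), STKLD1 (0.983), a gene without a symbol (ENSG00000285976, 0.982) and CNBD2 (0.981). For beta they were PIGG (0.986), STKLD1 (0.981), PLCXD2 (0.975), CDHR5 (0.973) and GPRC5D (0.973). For gamma they included VWA5B1 (0.955), IKZF3 (0.953), GJB7 (0.9499) and ARMCX2 (0.9496).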

How the data were processed

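Gene counts were deposited by the authors as whole numbers, made with STAR 2.7.5a and its gene counting mode on GRCh38 (annotation release 100). The strand setting is not given in the sources used here. This counting leaves out reads that overlap several genes, so the shared constant exons of the alpha and gamma clusters add little, and 18 of the 52 members overlap exons of other genes on the opposite strand. A table of the authors' own fold changes and p-values was not used, nor was 1 count column without a sample of its own. Of 19141 genes, 19080 were matched to a symbol.

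Counts were tested with edgeR 4.0.16 (R 4.3.3), with filterByExpr, scaling by the trimmed mean of M values and the quasi-likelihood test, at an adjusted p under 0.1 (Benjamini-Hochberg over all genes tested). The study used edgeR's glmTreat at a fold of 1, and the quasi-likelihood test stands in for it. The SE of a log2 fold change was its absolute value divided by the square root of the test's F statistic. It is not reliable where an arm had 0 counts. The 2 and 72 h comparisons and their difference were fitted on 14 libraries without those of 10 h, and the 10 h comparison on all 17. Members at 24 and 48 h were not tested. Ratios from pooled counts carry exact 95% intervals that cover counting error only, and a group at 0 was set to 3 counts. Own exon length was taken from GENCODE annotation of the same build, so per kilobase values depend on gene models that may differ from those counted. The test was checked on simulated data, and alternatives used limma 3.58.1 within edgeR and DESeq2 1.42.0.

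In each cluster the 6 tested genes with the highest mean level, the C-type genes and any gene called at 2 h were described. PCDHA5, PCDHA6, PCDHA8, PCDHA12, PCDHA13, PCDHB1, PCDHB2, PCDHB3, PCDHB4, PCDHB6, PCDHB8, PCDHB9, PCDHGB2, SLC25A2 and CD14 were named after their values were seen. Members and lists were chosen with earlier results of these data known. Of listed genes, those called at 2 h or among the 3 highest were named, and CDHR5, PCDH7 and PCDH1 are such genes. The labels tie replicate number to batch at 2 h, and libraries of the same number deviated together (r = 0.307), so they were treated as pairs in an alternative fit. The replicates are described as biological. Of the genes most like the gamma cluster, 1 is not reported here.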

Additional observations from a re-analysis of the deposited data

Results flagged for a closer look

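The effect of toyocamycin on the clusters differed between 2 and 72 h by a test of the difference itself (edgeR, the log2 fold change at 72 h minus that at 2 h, adjusted p under 0.1). The difference was positive for 25 of 34 members, where 38.0% of all genes tested were positive and 38.1% negative. Many of the 34 passed the filter only through the later toyocamycin libraries. Among the described genes the difference was 1.17 for PCDHA4, 6.95 for PCDHA10, 5.84 for PCDHA7, 7.27 for PCDHAC1, 2.98 for PCDHA3, 7.73 for PCDHA9 and 2.21 for PCDHAC2. In the beta cluster it was 2.76 for PCDHB13, 3.33 for PCDHB14, 2.03 for PCDHB11, 3.88 for PCDHB12 and 2.63 for PCDHB10. In the gamma cluster it was 6.09 for PCDHGA2 and 9.80 for PCDHGC5. The value of PCDHGC5 depends on the prior count, since the gene had 0 counts on DMSO at 72 h and on toyocamycin at 2 h. No group had 4 or more libraries, so none was checked for a library far from the others by a formal rule.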

How the results depend on the processing

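At 72 h the number of members called higher kept to within 1.5 times of the 33 of 34 under every setting run except the filter that asked for 10 counts in every library, which left 4 members, all 4 called. The single call at 2 h became 0 under mitochondrial scaling, edgeR's newer quasi-likelihood form, DESeq2's Wald test, no filter, an adjusted p under 0.05, a minimum fold of 1.5, all 17 libraries with and without a batch term, and without each library in turn (0 in all). It was also 0 with the filter of 10 counts, the time point fitted alone and the replicate block that pairs libraries. In these fits the gene of that call, PCDHA3, did not pass the filter and was not tested. At 10 h the 8 higher calls became 5 with library totals, 1 (and 1 lower) with mitochondrial scaling, 13 with DESeq2's Wald test, 1 with the filter of 10 counts, 5 at an adjusted p under 0.05, 5 with a minimum fold of 1.5, 22 with a batch term, and 0 with the time point alone; without replicate 2 or 1 of toyocamycin they ranged from 7 to 36, with 0 to 2 lower. The number of all genes called at 10 h moved with the setting as well, so these changes are not particular to the members. DESeq2's Wald test gave 11 of 46 members no adjusted p at 10 h. The members whose effect differed between 72 and 2 h went from 25 to 16 with mitochondrial scaling and to 4 with the filter of 10 counts. Over all 14491 genes tested, positive differences went from 5506 to 2810 with mitochondrial scaling.

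At 24 h, 22 members past 1 upwards became 8 with mitochondrial scaling and 3 with the filter, and 2 downwards became 1 with DESeq2 size factors, 4 with library totals, 11 with mitochondrial scaling, 4 without a filter and 0 with the filter of 10 counts. At 48 h, 32 upwards became 4 with the filter of 10 counts, and 0 downwards became 1 with mitochondrial scaling and 1 without a filter. The alpha median of 5.97 at 72 h was 6.29 with DESeq2 size factors, 5.37 with library totals, 4.93 with mitochondrial scaling, 6.39 with DESeq2's Wald test and 1.87 with the filter of 10 counts (1 gene), and 5.82 to 6.44 without each library in turn. The beta median of 3.44 was 3.76, 2.83, 2.32, 3.77 and 3.23 in the same order, and 3.19 to 3.50 without each library. The gamma median of 3.58 was 2.60 with mitochondrial scaling. The log2 ratio of the summed level was 4.07, 3.14 and 2.64 for alpha and 3.51, 2.58 and 2.08 for beta with DESeq2 size factors, library totals and mitochondrial scaling, and 1.75 for gamma with the last. The fold change of PCDHGA6 turned to -0.28 with mitochondrial scaling. Apart from the effect of fewer genes under the filter of 10 counts, the cause was not tested. At 72 h the numbers of the libraries do not pair them (r = -0.105, 0.0427 and -0.0876), and with the replicate block 26 of 26 members tested were higher, where 45.1% of 13113 genes were. Of those 26, 19 passed the filter only through the toyocamycin libraries. No paired analysis was possible at 10 h because the arms share 1 number only. Low counts limit what can be said of the gamma genes, most of which had fewer than 10 counts in every DMSO library.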
